A study of Gallus gallus with 28 samples.

Results

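SCD, ELOVL6 and FADS2 are enzymes that change the chain of a finished fatty acid, by adding a double bond (SCD and FADS2) or by lengthening it (ELOVL6). Their transcripts were followed in livers of a fat and a lean line of chickens (Gallus gallus) on 2-colour arrays of printed cDNA clones, where each liver sample competes with a reference for every clone. The members were every spot whose gene symbol in the platform annotation was SCD, ELOVL6 or FADS2. They came to 12 of 1728 spots, at 4 of 576 printed positions with 3 spots each, for 3 of the 142 genes with a symbol. SCD was printed at 2 positions of the same printing block (block 3, columns 1 and 4), called its first and second position here, from the same cDNA. ELOVL6 and FADS2 had 1 position each.

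The fat line was represented by pools 6 to 10 and the lean line by pools 1 to 5, each pool joining liver RNA of 4 birds. Pools 3 and 8 had 2 arrays and the other pools 3, which gave 14 arrays of the fat and 14 of the lean line. The labels name no treatment, and give neither the age and sex of the birds nor how the lines were bred. All arrays shared a reference made from all 10 pools. Values are log2 ratios to that reference, averaged over the spots of a position and then over the arrays of a pool. A pool is 1 replicate, so n is 5 per line, and p-values measure the spread between pools of 4 birds, with the array error that remains in them.

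The liver is the main site of fatty acid synthesis in birds. Fatty acid synthase releases palmitate, a saturated fatty acid. ELOVL6 elongates palmitate to stearate, and SCD, the delta-9 desaturase, turns palmitate and stearate into palmitoleate and oleate, monounsaturated fatty acids of liver triglyceride. FADS2, the delta-6 desaturase, works on another branch: it takes the essential fatty acids linoleate and alpha-linolenate through the first step towards long polyunsaturated fatty acids. In mammals, genes of all of these enzymes are targets of the transcription factor SREBP-1c, the product of SREBF1.

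The deposited ratios likely run as sample (Cy5) over reference (Cy3), after the order of the channels. No label states this, and with the opposite orientation all directions below would be reversed. Because the reference held all pools, the linear ratio of a position averaged over pools should lie near 1. This holds only if the pools were mixed equally and the normalization, which is not stated, did not shift the ratios. As deposited it was 1.01 for the first and 0.824 for the second SCD position and 0.974 for ELOVL6, against 1.10, 1.43 and 1.06 with the sign turned. For FADS2 it was 1.13 as deposited and 0.961 with the sign turned, so this check did not point one way for all members. The SCD positions hold the same cDNA, and the second was away from 1 either way. The check therefore cannot settle the direction.

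The members had values at most of their spots. Of their 336 spot values over all arrays, 303 (90.2%) were filled, 158 of them on fat and 145 on lean line arrays. The whole table was 36.7% filled, but it includes positions with too few values to be tested. The array medians lay between -0.06 and 0.07, and the median Pearson r between arrays of a pool was 0.21 over the tested positions. The number of pools and the array error limit the precision. Of 12 hepatocyte marker genes, 5 were on the array. ALB had no value, and 4 could be tested, with line differences between -0.30 (AHSG) and 0.43 (APOA1). AHSG had values in 5 fat and 4 lean pools. APOA1 was printed at 9 positions, but its difference came from a single tested position with values in 4 fat and 5 lean pools. Single pools moved both: AHSG was at -0.15 without pool 5 and also moved by over 1.5 times without pool 8, and APOA1 at 0.14 without pool 7 and 0.72 without pool 8. None of the listed markers of red cells, leukocytes and Kupffer cells, stromal, bile duct, fat and endothelial cells had a named spot, so the cell makeup was not analysed here. In pooled tissue a change in the number of hepatocytes cannot be told apart from a change in RNA per hepatocyte, and its part in the results was not tested.

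SCD gave the widest line difference of the 3 genes over all arrays, but not with the first array of each pool alone (0.52 for SCD, 0.71 for FADS2). At its first position the fat pools 6 to 10 stood at -0.24, 0.03, 0.65, 0.35 and 0.40, against -0.15, -0.61, 0.11, -1.01 and -0.11 in the lean pools 1 to 5. Pools 8, 9 and 10 of the fat line lay above every lean pool, and pools 2 and 4 of the lean line lay below every fat pool, with the other 5 pools overlapping. The mean was 0.24 ± 0.35 in fat and -0.36 ± 0.45 in lean pools (SD, n = 5 each). The fat line was higher by 0.59 (standard error 0.24, 1.51-fold, 95% interval 1.04 to 2.18).

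At the second SCD position the fat pools stood at -0.44, -0.14, 0.46, 0.30 and 0.09, against -0.43, -1.04, -0.39, -1.58 and -0.72 in the lean pools. Only fat pool 6 fell among the lean values here, next to lean pools 1 and 3, and 23 of the 25 fat and lean pool pairs had the fat pool higher. The mean was 0.05 ± 0.36 in fat and -0.83 ± 0.49 in lean pools (SD, n = 5 each). The fat line was higher by 0.89 (standard error 0.25, 1.85-fold, 95% interval 1.25 to 2.73). On single arrays this position ranged from -0.95 to 0.70 in the fat line, with 8 of 14 arrays above 0, and from -2.16 to -0.11 in the lean line, with 0 of 12 arrays above 0.

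Neither SCD position passed the test across the array. With limma on pool values and Benjamini-Hochberg adjustment over all 297 tested positions, the adjusted p was 0.477 for the first and 0.239 for the second position. Of those 297 positions 0 (0%) had an adjusted p under 0.05, while 28 (9.43%) had an unadjusted p under 0.05 and 15 (5.05%) were also higher in the fat line. Both SCD positions were among these 15 (unadjusted limma p = 0.0319 and 0.00554). A two-sided exact permutation of the 10 pools gave p = 0.0556 for the first and p = 0.0238 for the second position, where 32 of 232 positions with all pools (13.8%) had an exact p under 0.05 and the smallest possible value is 0.00794. When arrays were fitted as observations with the correlation within pools (0.173), 5 positions were called. The second SCD position was among them (difference 0.84, limma adjusted p = 0.0416) and the first outside (0.58, limma adjusted p = 0.196). This fit counts technical repeats and applies a single correlation to all positions, so its p can be too small where pools differ more. At the second SCD position the SD between pools within the lines was 0.43, and that between single arrays of a pool 0.43. The medians over tested positions were 0.32 and 0.37. The p of this position from the fit on arrays is thus likely too small. Over all alternatives the limma adjusted p of the second SCD position ran from 0.0234 to 0.525.

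**Figure D1:**
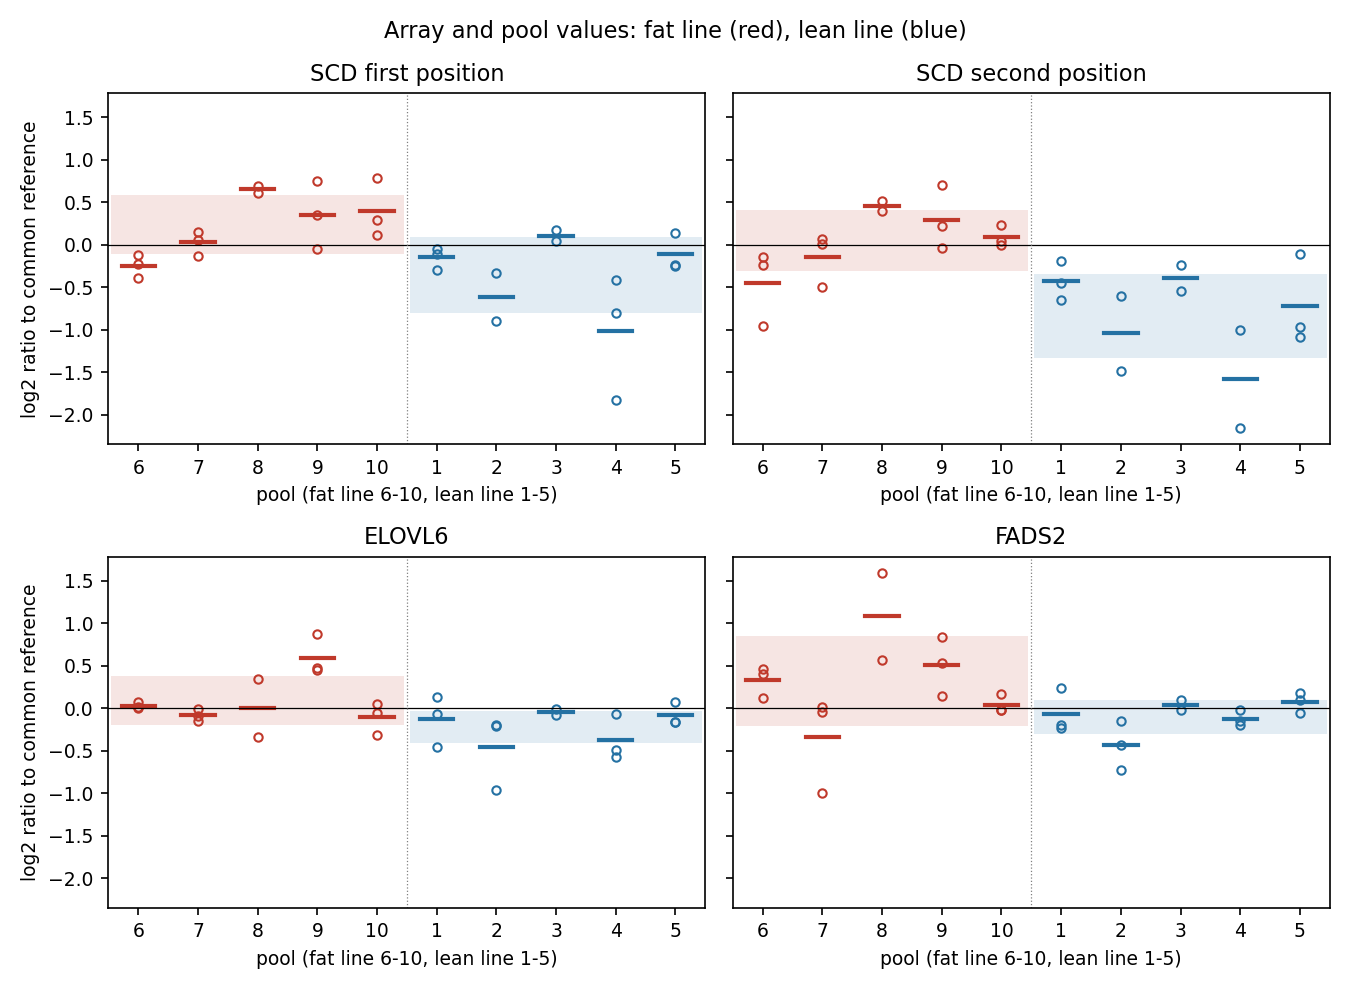
Log2 ratio to the common reference for each printed position, by pool, with the fat line in red at the left and the lean line in blue at the right of each panel. Circles are arrays, short bars are pool means and shaded bands are the line mean ± SD over 5 pools. At the second SCD position 4 fat pools sit above every lean pool, ELOVL6 stands out in fat pool 9 (0.60) and FADS2 in fat pool 8 (1.08).

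The SCD positions, although the same cDNA, did not give the same level. The second position lay below the first on 21 of the 26 arrays that measured both, and in all 10 pools. The mean gap was -0.30 (two-sided exact sign permutation p = 0.00195, the smallest possible value with 10 pools). In fat pools 6 to 10 the gap of the second from the first position was -0.20, -0.17, -0.19, -0.05 and -0.31, against -0.28, -0.43, -0.50, -0.27 and -0.61 in lean pools 1 to 5. It averaged -0.18 ± 0.09 in fat and -0.42 ± 0.14 in lean pools (SD, n = 5 each). The gap thus differed between the lines by 0.23 (two-sided exact permutation p = 0.0238, and between 0.0238 and 0.0476 with each pool left out). Both tests of the gap were chosen after the values were seen. Across pools the positions ran together, with a Pearson r of 0.97. Among 28 other pairs of positions that carry the same cDNA, from 15 genes, the median r was 0.49 and none was higher than that of SCD. Both SCD positions lie in printing block 3, while most of the other pairs lie in different blocks. Error shared within a block was not tested. In pool means over all arrays of each position, the median gap in mean level of the other pairs was 0.11. None was wider than the 0.33 of SCD, and a FABP1 pair came next at 0.32. Unlike the gap of -0.30 above, the 0.33 takes in an array of pool 4 that measured only the first SCD position. The line differences of the SCD positions lay 0.29 apart, and 11 of the 28 other pairs lay farther apart (median 0.19).

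**Figure D2:**
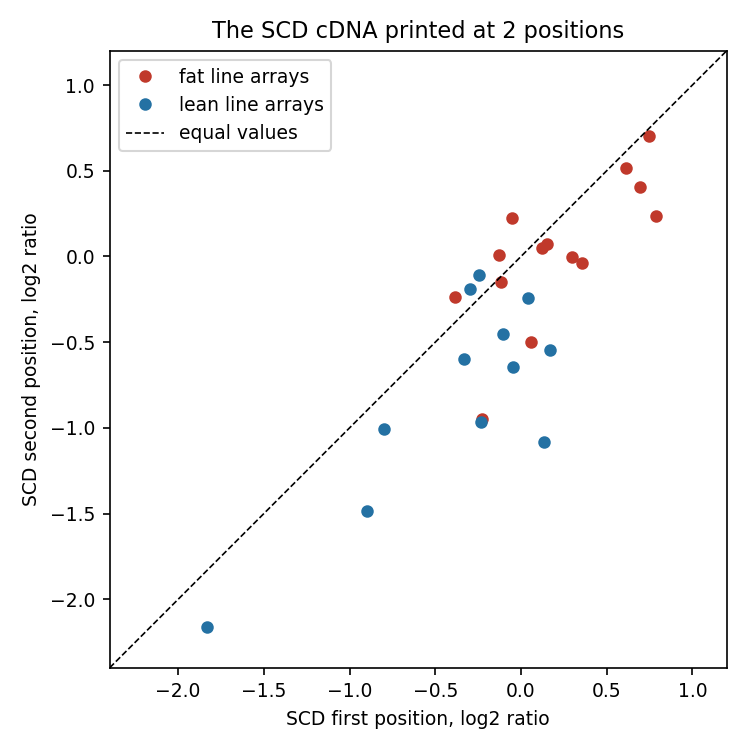
Log2 ratio at the second against the first SCD position, 1 point per array that measured both, with fat line arrays in red and lean line arrays in blue. The dashed line marks equal values, and 21 of the 26 arrays fall below it.

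Averaged over its positions, SCD was 0.15 ± 0.35 in fat and -0.59 ± 0.47 in lean pools (SD, n = 5 each), and the lines differed by 0.74 (standard error 0.25, 1.67-fold, 95% interval 1.14 to 2.44). In the fit over 110 gene means, of which 58 (52.7%) were higher in the fat line, 0 (0%) passed and 9 (8.18%) had an unadjusted p under 0.05, its limma adjusted p was 0.359. The lowest SCD pool of all was lean pool 4 at -1.30, and without that pool the difference was 0.56. In pool 4 the arrays were far apart: at the first position they ran from -1.83 to -0.41, and the array with the highest value gave no value at the second position. Restricted to arrays that measured both positions, a comparison added after the data were seen, SCD differed by 0.77.

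ELOVL6 differed less, and 1 fat pool carried a large share of its difference. The fat pools 6 to 10 stood at 0.03, -0.08, 0.00, 0.60 and -0.11, against -0.13, -0.46, -0.04, -0.38 and -0.08 in the lean pools 1 to 5. Every lean pool was below 0, fat pools 6, 8 and 9 lay above every lean pool, and fat pools 7 and 10 fell among them. The mean was 0.09 ± 0.29 in fat and -0.22 ± 0.19 in lean pools (SD, n = 5 each), so that ELOVL6 was 0.30 higher in the fat line (standard error 0.16, 1.24-fold, 95% interval 0.965 to 1.58). It did not pass (limma adjusted p = 0.597 over positions, two-sided exact permutation p = 0.0556). All arrays of fat pool 9 were high, between 0.45 and 0.87, and without that pool the difference was 0.18. The value 0.00 of fat pool 8 is the mean of arrays at -0.34 and 0.34. The SD of ELOVL6 was 0.26 between spots, against 0.17 and 0.18 at the SCD positions and a median of 0.33 over tested positions. Between arrays of a pool it was 0.27, against 0.33 and 0.43 at the SCD positions and a median of 0.37.

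FADS2 had the widest spread between fat pools. The fat pools 6 to 10 stood at 0.33, -0.34, 1.08, 0.51 and 0.04, against -0.06, -0.44, 0.04, -0.12 and 0.08 in the lean pools 1 to 5. Fat pools 6, 8 and 9 lay above every lean pool, fat pool 10 among the 2 highest lean pools, and fat pool 7 below all but lean pool 2. The mean was 0.32 ± 0.53 in fat and -0.10 ± 0.20 in lean pools (SD, n = 5 each), so that FADS2 was 0.43 higher in the fat line (standard error 0.24, 1.34-fold, 95% interval 0.930 to 1.94). It did not pass either (limma adjusted p = 0.631 over positions, two-sided exact permutation p = 0.119). Without pool 8, whose arrays stood at 1.59 and 0.57, the difference was 0.24.

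A single spot set the low value of FADS2 in fat pool 7. On the third array of that pool the spots read -0.08, -2.87 and -0.03. Without the spot at -2.87 pool 7 stood at -0.03, and FADS2 differed by 0.49 (standard error 0.21, unadjusted limma p = 0.0420, adjusted p = 0.498 over positions), in a comparison added after the data were seen. FADS2 depended on which array of each pool was read: its difference was 0.71 with the first arrays, 0.35 with the second and 0.01 with the third. The third arrays include none of pools 3 and 8 and hold the low spot, without which they gave 0.24. The corresponding differences were 0.52, 0.95 and 0.60 for the SCD gene mean and 0.34, 0.42 and 0.18 for ELOVL6. The 0.95 of SCD lacks lean pool 2, whose second array had no SCD value. In the 0.52 of SCD, lean pool 4 holds only the first SCD position.

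All 4 member positions were higher in the fat line, where 163 of the 297 tested positions (54.9%) were. With the sign of the ratio turned, those 163 positions, all 4 members included, would be lower and the other 134 (45.1%) higher. The median difference over all tested positions was 0.03 and the median standard error 0.20. Ranked from the highest fat minus lean difference, the second SCD position was at place 5 of 297, the first at 17, FADS2 at 36 and ELOVL6 at 54, which become places 293, 281, 262 and 244 with the sign turned. Whatever the direction, 12 positions differed by more in absolute value than the second SCD position, 31 by more than the first, 58 by more than FADS2 and 90 by more than ELOVL6. In none of the 4 did the lines separate fully, against 4 of 232 positions with all pools (1.72%) where every fat pool lay above every lean pool and 6 (2.59%) where the lines were apart in either direction.

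**Figure D3:**
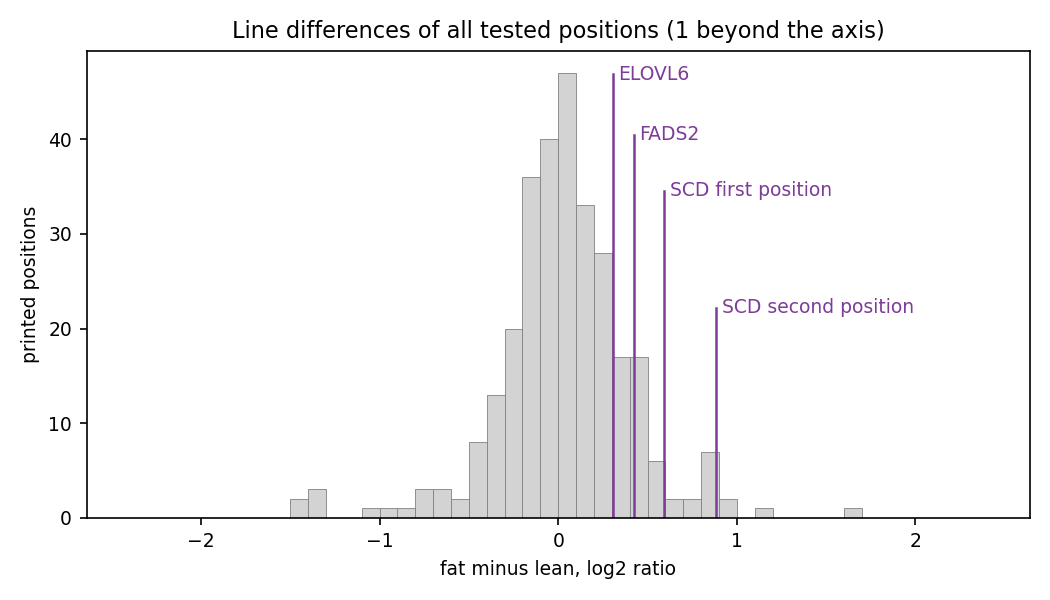
Number of printed positions by fat minus lean difference (log2 ratio) over 297 tested positions, with 1 beyond the axis. Purple lines mark the member positions, from ELOVL6 (0.30) and FADS2 (0.43) to SCD (0.59 and 0.89), all at the right of the median of 0.03.

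Pools within a line were compared next, to ask how far groups of birds of the same line differed beyond array error. At the first SCD position the SD between pools was 0.35 in fat and 0.45 in lean pools. The SD between single arrays of a pool was 0.33 there. At the second SCD position the pool SD was 0.36 in fat and 0.49 in lean pools, and the array SD 0.43. For FADS2 the pool SD was 0.53 in fat and 0.20 in lean pools, and the array SD 0.35. For ELOVL6 the pool SD was 0.29 in fat and 0.19 in lean pools, and the array SD 0.27. Pool values are means of 2 or 3 arrays, so the array error left in them is smaller than these array SDs. These SDs are a description and were not tested against each other. In the limma F test on fat line arrays the members had adjusted p-values between 0.163 (FADS2) and 0.190 (the second SCD position), and unadjusted p-values between 0.0128 and 0.0357. Of 202 positions in that test 0 (0%) passed after adjustment and 46 (22.8%) had an unadjusted p under 0.05. On lean line arrays the adjusted limma F test p-values ran from 0.262 (the first SCD position) to 0.648 (ELOVL6), where 1 of 189 positions (0.529%) passed and 30 (15.9%) had an unadjusted p under 0.05.

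The order of the pools was partly shared between the members. In the fat line pool 9 was the highest for ELOVL6 and the next to highest for SCD and FADS2, and pool 8 was the highest for SCD and FADS2. In the lean line pool 2 was the lowest for ELOVL6 and FADS2 and next to the lowest for SCD, and pool 3 was the highest for SCD and ELOVL6. Pool 6 set the members apart, with the lowest SCD value of the fat line (-0.34 in the gene mean) and a FADS2 value of 0.33. Over the 10 pools the Pearson r was 0.69 between SCD and ELOVL6, 0.66 between SCD and FADS2 and 0.59 between ELOVL6 and FADS2. Spearman's rho was 0.60, 0.59 and 0.84 in the same order. With the line means taken out r was 0.49, 0.49 and 0.42. Other genes ran closer to each member. By r over the 10 pools, among 78 other genes, ELOVL6 ranked 9 and FADS2 12 for SCD (median r 0.06). For ELOVL6, SCD ranked 5 and FADS2 7 (median r 0.09), and for FADS2, SCD ranked 7 and ELOVL6 10 (median r 0.10). Which pools were left out moved r: without the 2 farthest from the SCD median (pools 4 and 8) it was 0.74 with ELOVL6 and 0.56 with FADS2. Without the 2 farthest from the ELOVL6 median (pools 9 and 2) r was 0.76 with SCD and 0.50 with FADS2. Without the 2 farthest from the FADS2 median (pools 8 and 2) it was 0.36 with SCD and 0.77 with ELOVL6. These coefficients are a description: members on the same array share its error and its normalization. Those with FADS2 include the low spot of fat pool 7, except where pools are left out that hold it, and were not computed without it.

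Of the enzymes that work beside the members, none of 19 listed partners in desaturation and elongation, other than the members, had a named spot. Of the genes that supply palmitate and NADPH, 5 of 12 were measured, 3 higher and 2 lower in the fat line, with 0 past adjustment and a median difference of 0.02, against 0.03 over all 110 genes. FASN, which assembles palmitate, differed by 0.68 (standard error 0.20), and ACACA, which makes the malonyl-CoA that both FASN and ELOVL6 use, by 0.50 (standard error 0.22). The FASN value is a mean over 2 positions, which differed by 0.87 and 0.50. PGD, an NADPH source of the pentose phosphate pathway, was at -0.15 in 4 fat and 4 lean pools. It had no settled sign, with values from -0.56 (without pool 4) to 0.13 (without pool 1). PGD also moved by over 1.5 times without pool 5, 6 or 10.

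Of the listed regulators 7 of 20 were measured, 5 higher and 2 lower in the fat line, with a median of 0.09 and 0 past adjustment. SREBF1, which encodes the activator named above, differed by 0.35 (standard error 0.16) in the mean of its 3 positions. These hold the same cDNA but differed by 0.02, 0.37 and 0.97, the last with values in 7 pools only. The Pearson r between the SREBF1 positions was -0.08, 0.39 and 0.47. PPARA, a nuclear receptor for fatty acids, was at 0.69 (standard error 0.57) in 4 fat and 5 lean pools. It was at 0.38 without pool 3 and 1.13 without pool 2. THRA, a thyroid hormone receptor, was at -1.48 with a standard error of 1.17, and at -0.17 without pool 3.

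Genes that use the products, in fatty acid activation, glycerolipid synthesis, lipid droplets and export, had 6 of 19 measured, 3 higher and 3 lower, with a median of -0.03 and 0 past adjustment. PNPLA3, an acylhydrolase of lipid droplets, was lowest at -0.48 (standard error 0.21). FABP1, a liver fatty acid binding protein, was at -0.25 (standard error 0.16) over 5 positions. LBFABP, another one, was at 0.27 in 3 fat and 5 lean pools, and had the values -0.07 without pool 8 and 0.67 without pool 9, while leaving out pool 1 or 4 also moved it by over 1.5 times. In fatty acid oxidation 3 of 17 genes were measured, 1 higher and 2 lower, with a median of -0.07 and 0 past adjustment. CPT2, of the carnitine shuttle, was at 0.95 (standard error 0.46), at 0.59 without pool 3 and also moved by over 1.5 times without pool 10. ACAT1 of the mitochondrial thiolases was at -0.14, between -0.28 (without pool 3) and -0.05 (without pool 1), with pools 7, 8 and 10 also moving it by over 1.5 times. SLC25A20, the carnitine carrier, was at -0.07 and between -0.24 (without pool 2) and 0.02 (without pool 4), with pools 3 and 6 also moving it by over 1.5 times. Limma adjusted p-values of the genes named from these lists lay between 0.250 (FASN) and 0.889 (PGD).

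**Figure D4:**
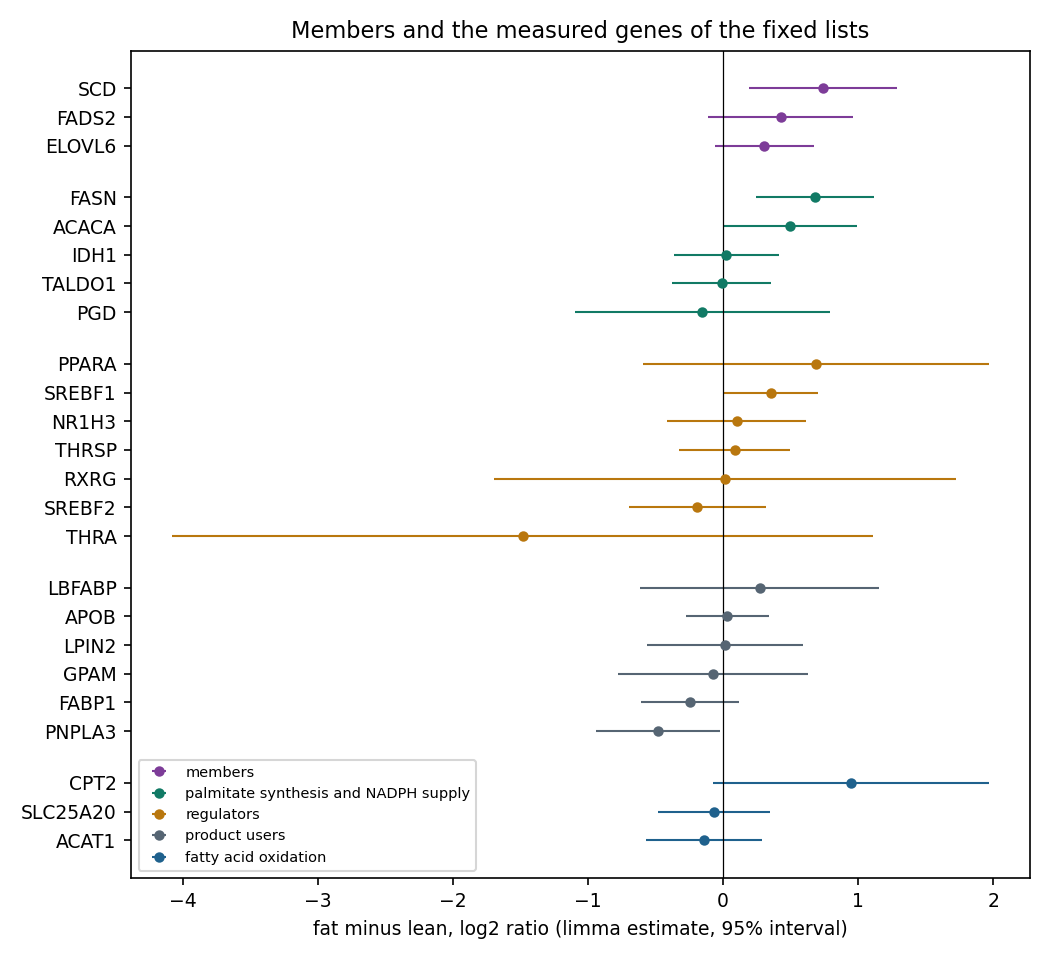
Fat minus lean difference (log2 ratio, limma estimate with its 95% interval, n up to 5 pools per line) for the 3 members and the measured genes of 4 lists. The members lie to the right of 0, with the intervals of ELOVL6 and FADS2 reaching across it. In the palmitate and NADPH list FASN and ACACA lie to the right, with IDH1 at 0.02, TALDO1 at -0.01 and PGD at -0.15. The genes that use the products also lie on both sides.

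The genes whose pool pattern was most like that of each member were sought among named genes with values in all 10 pools, with the members left out. For SCD they were FASN (Pearson r 0.89, Spearman rho 0.94), ACACA (0.86 and 0.87) and FH, the fumarase of the citrate cycle (0.79 and 0.78). The median r of SCD with all 78 other genes that had values in all pools, ELOVL6 and FADS2 included, was 0.06. FASN stood at -0.04, 0.48, 0.87, 0.45 and 0.16 in fat pools 6 to 10, against -0.04, -0.41, 0.02, -0.59 and -0.47 in lean pools 1 to 5, so that pool 6 was its lowest fat pool and pool 4 its lowest lean pool, as for SCD. This FASN profile is a mean over 2 positions of the same cDNA (Pearson r 0.56), with line differences of 0.87 and 0.50. The FASN position at 0.87 lies in printing block 3, like both SCD positions, and error shared within that block was not tested. Within the lines, with line means taken out, the r of SCD was 0.77 with FASN and 0.77 with ACACA. Without pools 4 and 8, the farthest from the SCD median, r was 0.82 with FASN, 0.78 with ACACA and 0.37 with FH.

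For ELOVL6 the most alike were FBP1, an enzyme of gluconeogenesis (Pearson r 0.95, Spearman rho 0.82), ACACA (0.79 and 0.72) and SREBF1 (0.71 and 0.79). FBP1 had its highest value in fat pool 9 (0.79) and its lowest in lean pool 2 (-0.79), the same pools as ELOVL6. Without those pools r was still 0.85 with FBP1, and 0.67 with ACACA and 0.76 with SREBF1. The SREBF1 profile is a mean over positions that ran apart, as given above. For FADS2 the most alike were MDH2, the mitochondrial malate dehydrogenase (Pearson r 0.83, Spearman rho 0.67), ACACA (0.80 and 0.56) and CAT, catalase (0.72 and 0.70). The MDH2 profile is a mean over positions with line differences from -0.37 to 0.52. Pearson r between MDH2 positions of the same cDNA ran from -0.24 to 0.95. Without pools 8 and 2, the farthest from the FADS2 median, r was 0.44 with MDH2, 0.54 with ACACA and 0.61 with CAT. ACACA was thus among the 3 most alike of every member. The genes were picked for their r, so no p is given, and values of 1 pool share its birds and its arrays.

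**Figure D5:**
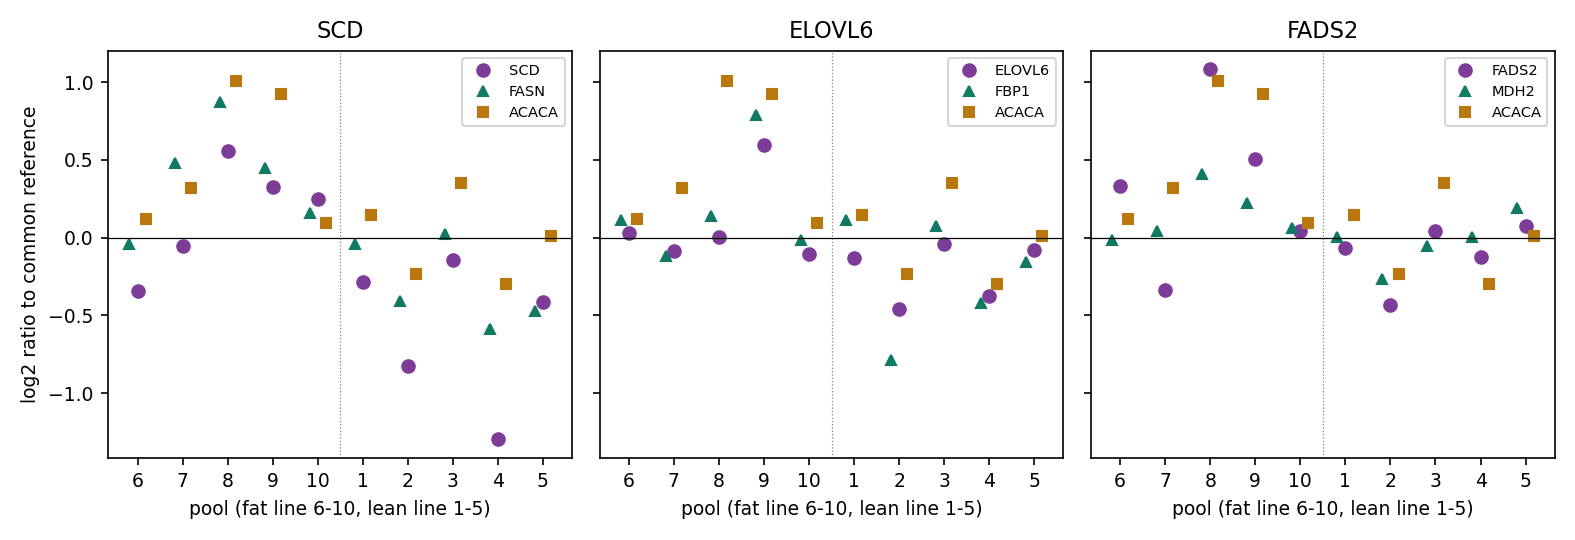
Gene means (log2 ratio to the common reference) by pool, fat line at the left and lean line at the right of each panel, for each member (purple circles), its most alike gene (green triangles) and ACACA (orange squares). SCD, FASN and ACACA are all highest in fat pool 8 and lowest in lean pool 4, and ELOVL6 and FBP1 are highest in fat pool 9 and lowest in lean pool 2.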

How the data were processed

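The authors deposited log2 ratios of single spots. How these were scanned, background-corrected, filtered and normalized is not stated in the labels or headers, and the log base was read from the values, which reach 14.01. Per the labels, 500 ng of poly(A)+ RNA of a pool was labelled with Cy5 and the reference with Cy3, with no dye swap. Spots 3 rows apart hold the same clone and were averaged, then the arrays of a pool. The test took positions measured in 3 or more pools of both lines (limma 3.58.1, R 4.3.3, lmFit and eBayes, two-sided, fat minus lean, Benjamini-Hochberg), and gene means over tested positions in a second fit. Missing values were left missing. Named genes were the members, the 3 with the largest absolute difference of each list and the 3 with the highest Pearson r per member. Members, lists and tests were chosen with earlier results of these data known. Gene names of the members matched a current annotation, used for names only. Single values were also tested by exact permutation over 252 splits of the pools.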

Additional observations from a re-analysis of the deposited data

Results flagged for a closer look

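In the fat line ELOVL6 in pool 9 stood apart, at 0.60 against -0.11 to 0.03 in the other fat pools. Its gap to the nearest pool was 0.803 of the whole range of the fat line, above the critical value of 0.71 for 5 samples. It was the only such case among 12 sets of 5 pools looked at (the 4 positions, the SCD gene mean and the gap between the SCD positions, in each line), where chance flags about 1 in 20. All 3 arrays of pool 9 were high for ELOVL6 in the mean of their spots, but the spots of the third array ran from 0.01 to 1.15.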

How the results depend on the processing

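No alternative turned the direction of SCD, ELOVL6 or FADS2. With arrays as observations and the correlation within pools, 5 positions were called and SCD passed as a gene mean (0.69, limma adjusted p = 0.0487). With a replicate block for the array number, 6 positions were called and SCD passed (0.69, limma adjusted p = 0.0457). Both fits count technical repeats and apply a single correlation to all genes (0.198 in the fit without the block). The error can be understated for a gene whose pools differ more than that, and it is likely understated for SCD. The SCD pool SDs within the lines were 0.40 and 0.43 at the first and second position, against array SDs of 0.33 and 0.43. On pool values the limma adjusted p of SCD was 0.359. The array number names technical repeats. In their deviations from pool means, arrays of the same number in different pools had a median correlation of 0.03, from -0.27 to 0.39. For arrays of different numbers it was -0.02, from -0.39 to 0.38. These values cover all tested positions, and an effect of the array number on single positions was not tested. In the other 26 alternatives 0 positions were called, or 0 gene means in the alternative that fitted gene means in place of positions. Over 27 alternatives, SCD ran from 0.52 to 0.95, ELOVL6 from 0.18 to 0.42 and FADS2 from 0.01 to 0.71. With single pools left out, they ran from 0.56 to 0.86, from 0.18 to 0.35 and from 0.24 to 0.59. The number of pools and the array error limit what could be detected.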
